A study of Mus musculus with 19 samples.

Results

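CBFA2T2 binding sites that lay outside protein-coding genes and were found with both forms of histone H3.3 are described here. Peaks of the H3.3WT list were taken if they overlapped a peak of the H3.3K27M list by at least 1 bp. Their summit, the position of highest enrichment, had to lie outside every protein-coding gene and more than 1 kb from every end of such a gene. Peaks with a fold enrichment below 3 and a −log10 q of at least 20, as repeats can give, were left out, 22 in number. This left 662 peaks, 9.57% of the 6920 in the H3.3WT list and 12.05% of the 5496 in that list that were shared. They overlapped 661 distinct peaks of the 8272 in the H3.3K27M list. The other shared peaks lay within 1 kb of a protein-coding gene end (4006) or inside such a gene (806). The repeat rule leaves in some members with a modest fold and a very high −log10 q. One, at chr13:113721882-113723904, had 4.88-fold and a −log10 q of 163 with H3.3K27M. With H3.3WT it had 5.11-fold and 138. Whether such members lie in repeats was not examined. The members were thus chosen by overlap, summit position, fold and −log10 q, and the values below describe them without a test.

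The cells were NE-4C, a neural stem cell line from mouse brain that lacks p53. In both groups the gene H3f3a had been knocked out and an HA-tagged H3.3 was stably expressed, either H3.3K27M, in which lysine 27 is replaced by methionine, or H3.3WT. Chromatin was crosslinked for 10 min, sheared to 300 to 500 bp and precipitated with an antibody to CBFA2T2, with 1 library for each genotype. Of the 19 libraries described, the 2 with CBFA2T2 peak lists were used, and the others, among them libraries from H3.3WT cells without Cbfa2t2, were not analysed here. With 1 library per genotype there is no replicate error, so values of the genotypes are set side by side and no difference between them was tested. Peak lists hold no expression values, so the labelled cell type was not checked against markers.

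CBFA2T2, also called MTGR1, belongs to the MTG (ETO) family of transcriptional corepressors. These proteins do not read a DNA sequence on their own. Transcription factors, among them E proteins of the basic helix-loop-helix class, bring them to DNA, where they act as a platform for NCoR/SMRT and histone deacetylases. In neural progenitors the family is known for its part in the balance between renewal and differentiation. Regulatory DNA outside protein-coding genes includes enhancers and the promoters of noncoding RNA genes.

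The members with a summit at the start of a long noncoding RNA (lncRNA) gene could be shown as sequence. For 39 of the 662 peaks the H3.3WT summit fell in a promoter window of the RefSeq tables (GRCm38.p6, the assembly also called mm10). Such a window runs from 250 bases before to 50 after a gene start and is 300 bp long. The summits in the windows of Gm46404 and BB557941 lay nearer a tRNA gene and are also counted below as tRNA gene peaks. The 6 windows with the best summed rank of fold in both lists are printed 5′ to 3′ on the strand of the gene, because they are the most enriched of these 39. Capitals mark matches, on either strand, to the motifs described further on. The gene 4933404O12Rik has its window at chr5:136918896-136919195 (+), and Snhg12, a host gene of small nucleolar RNAs (snoRNAs), at chr4:132308428-132308727 (+). The Trmt61b window, at a gene typed as lncRNA in this annotation, is at chr17:71598712-71599011 (−), and that of 1810044D09Rik at chr6:91440737-91441036 (+). The remaining windows are Gm36445 at chr13:65241265-65241564 (+), which holds none of the motifs, and LOC102631992 at chr19:4257656-4257955 (−).
4933404O12Rik: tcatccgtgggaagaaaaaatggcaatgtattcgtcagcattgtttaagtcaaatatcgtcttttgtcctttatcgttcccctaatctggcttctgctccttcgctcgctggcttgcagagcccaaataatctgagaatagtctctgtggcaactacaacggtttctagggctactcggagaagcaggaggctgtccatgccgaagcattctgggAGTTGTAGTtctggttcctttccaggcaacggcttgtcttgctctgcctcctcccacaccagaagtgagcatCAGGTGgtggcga
Snhg12: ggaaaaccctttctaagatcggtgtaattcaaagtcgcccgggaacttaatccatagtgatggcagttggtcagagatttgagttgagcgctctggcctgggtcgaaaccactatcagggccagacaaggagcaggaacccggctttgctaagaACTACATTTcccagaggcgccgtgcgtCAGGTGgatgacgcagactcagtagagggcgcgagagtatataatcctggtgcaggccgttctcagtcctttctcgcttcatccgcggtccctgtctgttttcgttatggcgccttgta
Trmt61b: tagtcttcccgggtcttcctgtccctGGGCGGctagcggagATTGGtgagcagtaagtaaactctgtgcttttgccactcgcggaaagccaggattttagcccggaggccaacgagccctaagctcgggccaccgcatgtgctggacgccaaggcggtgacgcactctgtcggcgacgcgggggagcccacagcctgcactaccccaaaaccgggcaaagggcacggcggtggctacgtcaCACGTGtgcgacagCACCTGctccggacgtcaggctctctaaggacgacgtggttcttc
1810044D09Rik: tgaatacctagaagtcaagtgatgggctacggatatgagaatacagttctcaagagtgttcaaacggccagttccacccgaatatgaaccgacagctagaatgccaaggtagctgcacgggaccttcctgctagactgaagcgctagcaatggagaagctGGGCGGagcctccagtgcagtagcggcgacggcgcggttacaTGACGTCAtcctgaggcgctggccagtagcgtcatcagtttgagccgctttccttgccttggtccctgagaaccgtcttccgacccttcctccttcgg
Gm36445: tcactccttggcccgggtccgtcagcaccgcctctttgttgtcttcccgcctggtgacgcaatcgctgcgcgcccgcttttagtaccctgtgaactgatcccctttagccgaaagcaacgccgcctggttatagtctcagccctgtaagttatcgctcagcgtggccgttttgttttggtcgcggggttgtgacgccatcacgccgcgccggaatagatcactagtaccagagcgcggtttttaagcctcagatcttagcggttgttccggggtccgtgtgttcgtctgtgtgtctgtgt
LOC102631992: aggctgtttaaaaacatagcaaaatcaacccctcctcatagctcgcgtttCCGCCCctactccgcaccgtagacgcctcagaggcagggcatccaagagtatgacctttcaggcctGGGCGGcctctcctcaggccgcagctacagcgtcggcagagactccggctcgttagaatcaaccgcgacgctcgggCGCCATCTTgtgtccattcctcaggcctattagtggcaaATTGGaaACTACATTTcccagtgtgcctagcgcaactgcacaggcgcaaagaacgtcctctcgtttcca

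CBFA2T2 was enriched 24.2-fold in the H3.3K27M list and 23.7-fold in the H3.3WT list at 4933404O12Rik, with the H3.3WT summit 46 bp downstream of the start. The fold is the authors' value and sets the ChIP signal against an estimate of the local background. At Snhg12 the fold was 10.9 with H3.3K27M and 23.2 with H3.3WT, and at Trmt61b it was 17.7 with H3.3K27M and 11.4 with H3.3WT. The 1810044D09Rik start had 11.3-fold enrichment in H3.3K27M cells and 13.98-fold in H3.3WT cells. Gm36445 had 10.2-fold with H3.3K27M and 14.7-fold with H3.3WT, and LOC102631992 had 9.35-fold with H3.3K27M and 15.2-fold with H3.3WT. These windows thus include starts with the higher value in either list, and the size of such gaps cannot be set against replicate error.

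Across all 662 members the median fold was 5.74 in the H3.3K27M list (interquartile range 4.44 to 8.30, highest 47.6) and 6.15 in the H3.3WT list (4.86 to 8.21, highest 50.2). Shared peaks at protein-coding gene ends had medians of 7.06 with H3.3K27M and 7.12 with H3.3WT, and those inside protein-coding genes 6.19 and 6.42 in the same order of lists. Both medians of the intergenic sites lay below those of the other shared peaks. The intergenic peaks found in 1 list only had medians of 4.83 (H3.3K27M only, 673 peaks) and 5.21 (H3.3WT only, 452 peaks). Median peak width was 504 bp with H3.3K27M and 462 bp with H3.3WT, against 609 bp and 543.5 bp over all shared peaks.

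A fold of at least 10 in both lists was reached by 64 members (9.67%, 95% Wilson interval 7.64 to 12.2%), against 18% of all 5496 shared peaks. The corresponding shares were 20.5% at protein-coding gene ends and 13.0% inside protein-coding genes. Taking each list by itself, 105 members reached 10-fold with H3.3K27M and 104 with H3.3WT. Member folds in the lists had a Spearman correlation of 0.61 across the 662 peaks, and all shared peaks one of 0.68. This correlation is a description across peaks of the same pair of libraries. The summits of both lists lay a median of 50 bp apart, and 511 members (77.2%) had them within 100 bp, close to the 77.5% of all shared peaks.

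**Figure D1:**
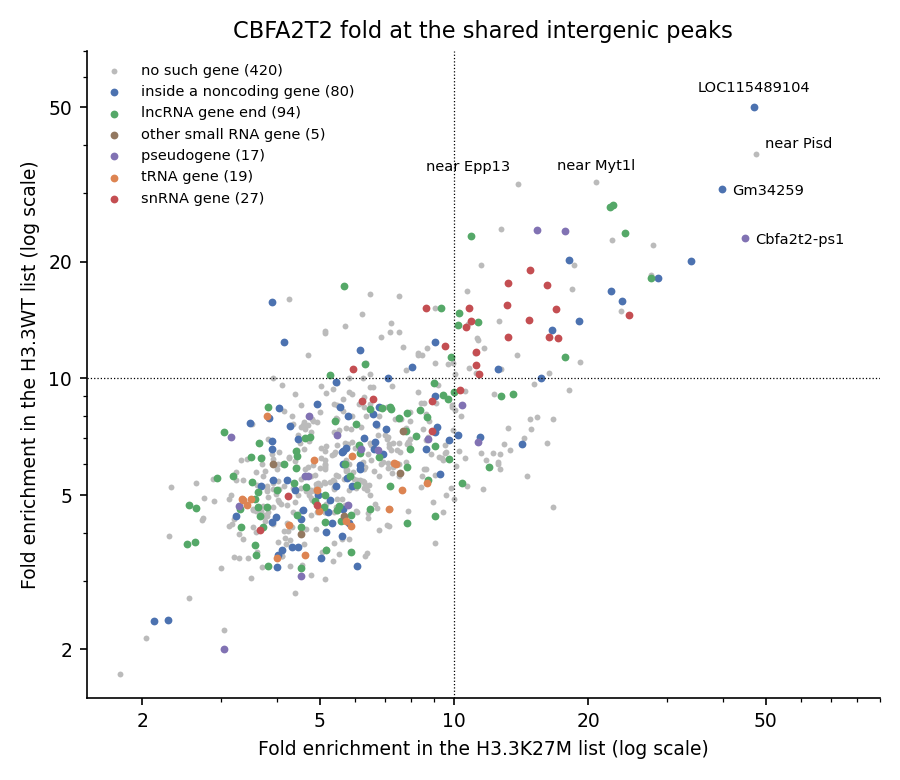
Each point is a shared intergenic CBFA2T2 peak, with its fold enrichment in the H3.3K27M list (x axis) and the H3.3WT list (y axis), both on log scales, coloured by the annotated gene at the H3.3WT summit (number of peaks in brackets). Dotted lines mark 10-fold, which 64 of the 662 peaks reached in both lists, among them 16 of the 27 snRNA gene peaks (red).

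The most enriched intergenic sites lay at various distances from protein-coding genes. The peak with the highest fold in the H3.3K27M list (47.6, with 37.9 in the H3.3WT list) lay at chr5:32713739-32714454, 22133 bp from Pisd, which encodes mitochondrial phosphatidylserine decarboxylase. The peak with the highest fold in the H3.3WT list had 46.9-fold enrichment with H3.3K27M and 50.2-fold with H3.3WT. It lay at chrX:75673835-75674829, inside the span of the pseudogene LOC115489104 and 96161 bp from Rab39b, a small GTPase gene. A peak inside the lncRNA gene Gm34259 (chr17:4626168-4626579) had 39.9-fold with H3.3K27M and 30.8-fold with H3.3WT, 367961 bp from Arid1b, a subunit gene of the BAF chromatin remodeller. Inside Gm46880 the values were 33.9-fold with H3.3K27M and 20.04-fold with H3.3WT, and inside Mir670hg, the host gene of a microRNA, 28.7-fold and 18.1-fold in the same order. Each of these sites was thus above 10-fold in both lists.

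A pseudogene of the gene of CBFA2T2 itself, Cbfa2t2-ps1, held a peak at chr5:60231470-60232208. Its fold was 44.9 in the H3.3K27M list and 23.01 in the H3.3WT list, and its −log10 q of 664 with H3.3K27M and 444 with H3.3WT was the highest of all members in both lists. The site is 1576931 bp from the nearest protein-coding gene end, that of G6pd2. A pseudogene resembles its parent gene in sequence, and how reads with several matching positions were placed is not stated in the sources used here, so that reads from Cbfa2t2 and from the pseudogene may not have been told apart.

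Other strong sites had the higher value in the H3.3WT list. The peak 236451 bp from Myt1l, a neuronal zinc-finger transcription factor gene, had 20.8-fold with H3.3K27M and 32.1-fold with H3.3WT. A peak 1957 bp from Epp13 had 13.9-fold with H3.3K27M and 31.8-fold with H3.3WT. Near Irf2bp1, the gene of an interferon regulatory factor 2 corepressor, the peak 1086 bp from the gene had 12.7-fold with H3.3K27M and 24.3-fold with H3.3WT. Conversely, a peak 21781 bp from Ier5l had 27.9-fold with H3.3K27M and 22.1-fold with H3.3WT. One 17589 bp from Plcg2, a phospholipase C gene, had 27.6-fold with H3.3K27M and 18.5-fold with H3.3WT. A peak 33135 bp from Pum2, the gene of an RNA-binding translational repressor, had 23.7-fold with H3.3K27M and 14.9-fold with H3.3WT. Sites of similar height in both lists were those 3491 bp from Tal2, a basic helix-loop-helix gene (18.6-fold with H3.3K27M and 19.6-fold with H3.3WT), and 4863 bp from Map1lc3b, an autophagy gene (18.3-fold and 17.1-fold in the same order).

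Annotated noncoding genes or pseudogenes were at 242 of the 662 sites (36.6%, 32.97 to 40.3%), as 162 summits lay within 1 kb of an end of such a gene and 80 lay inside one. Of all intergenic bases as defined here, 14.8% lie in or within 1 kb of such a gene and 3.84% within 1 kb of an end. The members' share within 1 kb of an end was 24.5%. Intergenic peaks found only with H3.3K27M had 36.1% at or in such a gene, and those found only with H3.3WT 22.6%. The other 420 members had no such gene and a median fold of 5.67 with H3.3K27M and 5.999 with H3.3WT, and 25 of them reached 10-fold in both lists.

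Small nuclear RNA (snRNA) genes held the members with the highest median fold. These genes encode the RNA parts of the spliceosome and have compact promoters used by RNA polymerase II, or polymerase III for U6. At 27 members with an snRNA gene end the median fold was 10.9 with H3.3K27M (3.68 to 24.6) and 12.7 with H3.3WT (4.07 to 19.04), and 16 reached 10-fold in both lists. All 27 summits lay within 250 bp of the gene, at a median of 29 bp, and the peaks were wide, with medians of 838 bp in the H3.3K27M list and 787 bp in the H3.3WT list. An snRNA gene end was at 4.08% of the 662 members, and at 3 of 673 intergenic peaks (0.446%) found in H3.3K27M alone. It was at 0 of 452 found in H3.3WT alone. The 27 summits were thus near the annotated genes themselves and, for the most part, high in both lists.

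Most snRNA sites, 25 of 27, had another member within 50 kb. Around Mreg and Pecr on chromosome 1, Gm25360, Gm23472, Gm24497 and Gm25939 formed a run between 72226336 and 72255022. Their folds were 8.65 to 14.7 with H3.3K27M and 12.8 to 15.5 with H3.3WT. On chromosome 11, Gm26316, Gm24950, Gm23971 and Rnu2-10, the last a U2 gene, spanned 101604954 to 101658242 with 8.91-fold to 16.9-fold enrichment in H3.3K27M cells and 8.72-fold to 19.04-fold in H3.3WT cells. The U1 genes Rnu1b1 (9.55-fold with H3.3K27M and 12.1-fold with H3.3WT), Rnu1b2 (11.2-fold and 11.7-fold in that order) and Rnu1b6 (11.2-fold and 10.8-fold) lay on chromosome 3 with Gm24830, Gm25890 and Gm22614. Of these, Gm22614 had the highest fold of the class in the H3.3K27M list, 24.6 against 14.6 with H3.3WT. Genes of the minor spliceosome and of U5 were present as well, with 10.9-fold with H3.3K27M and 14.1-fold with H3.3WT at Rnu11, and 8.91-fold and 7.33-fold in that order at Rnu5g.

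The snRNA genes with a member were unevenly spread over the annotated gene lengths. Of the 15 genes annotated as 191 bp long, 9 had a member, and of the 9 genes of 116 bp, 5 did. Genes of 165 bp had a member in 4 of 12 cases. Genes of 107 bp, the most numerous length, had a member in 3 of 385 cases. In all, 28 of 1004 snRNA genes had a member within 1 kb. The genes were grouped by annotated length only, and neither their family nor how complete each copy is was examined. Copies of an snRNA gene can be nearly identical, so a peak assigned to one copy may include reads of another.

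Transfer RNA (tRNA) genes, which RNA polymerase III transcribes from promoters inside the gene, held 19 members, and none of these reached 10-fold in both lists. Their median fold was 4.92 with H3.3K27M (3.34 to 8.71) and 4.88 with H3.3WT (3.45 to 7.99), below the medians of all members. A tRNA gene end was at 2.87% of members, against 4.31% of intergenic peaks found only with H3.3K27M and 1.33% of those only with H3.3WT. The highest tRNA value in the H3.3K27M list was at n-TYgta1, with 8.71-fold against 5.37-fold with H3.3WT. In the H3.3WT list it was at n-TLtag1, with 3.80-fold in H3.3K27M cells and 7.99-fold in H3.3WT cells. Of the 430 annotated tRNA genes 43 (10%) had a member within 1 kb, since several tRNA genes can lie beside the same summit. The same share was 2.79% of snRNA genes, 0.833% of lncRNA genes, 0.597% of snoRNA genes and 0.407% of microRNA genes. It was 2.05% of transcribed pseudogenes and 0.110% of the other pseudogenes. These shares are of all annotated genes, also those in or beside protein-coding genes, where the selection leaves out summits. They were not adjusted for this, so the types cannot be ranked by them. A run of 3 tRNA gene sites on chromosome 1 between 171044915 and 171080182 had 3.36-fold to 4.26-fold enrichment with H3.3K27M and 3.45-fold to 4.86-fold with H3.3WT.

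**Figure D2:**
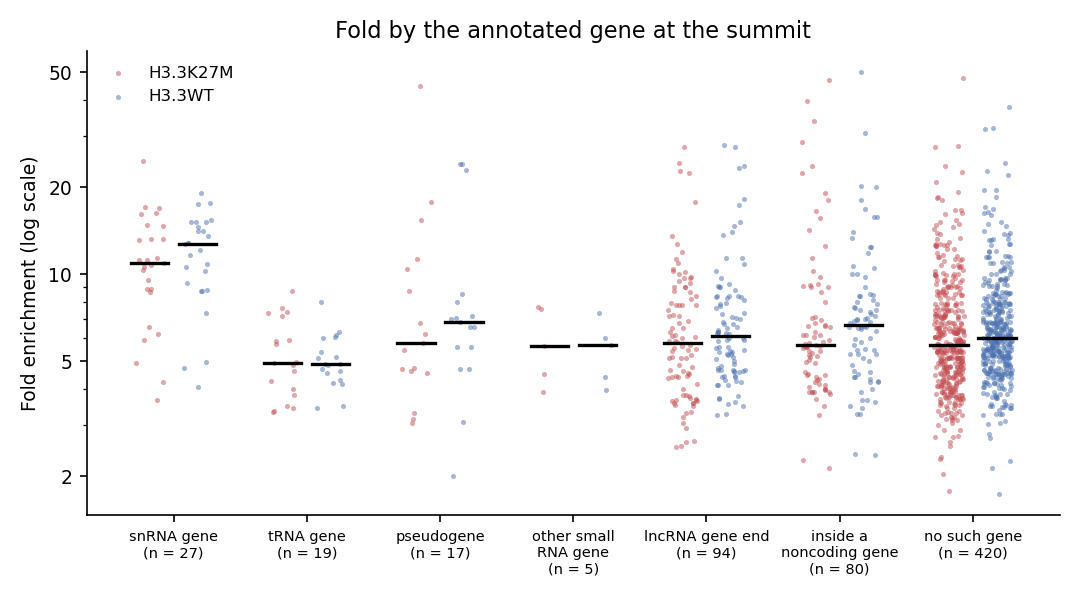
Fold enrichment (log scale) of the 662 shared intergenic peaks by the annotated gene at the summit, H3.3K27M list in red left of the H3.3WT list in blue, 1 point per peak, with bars at the medians. The snRNA gene peaks have the highest medians (10.9 with H3.3K27M and 12.7 with H3.3WT) and the tRNA gene peaks the lowest of the groups plotted.

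The lncRNA gene ends were the largest class, with 94 members and median folds of 5.76 with H3.3K27M and 6.11 with H3.3WT, and 9 of them reached 10-fold in both lists. The 94 were 14.2% of members. The share was 10.8% of intergenic peaks found only with H3.3K27M, 6.19% of those only with H3.3WT and 11.3% of shared peaks at protein-coding gene ends. Where the annotation gave a start with its strand, 71 of the 94 summits lay nearer a listed start of the gene and 7 nearer its end, and for 16 there was no strand. A gene can have several listed starts, also inside its span, but only 1 end, which favours the start in this count. Of the 71, 32 were within 100 bp of the nearest listed start and 44 within 200 bp. The peak at Rab10os, 446 bp from an end of this lncRNA gene, had 22.7-fold with H3.3K27M and 27.9-fold with H3.3WT. At B930059L03Rik the values were 22.4-fold with H3.3K27M and 27.6-fold with H3.3WT, and at Gm38944 they were 27.6-fold with H3.3K27M and 18.2-fold with H3.3WT. These peaks were classed by lying within 1 kb of a gene end, and a further 75 members lay deeper inside an lncRNA gene.

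**Figure D3:**
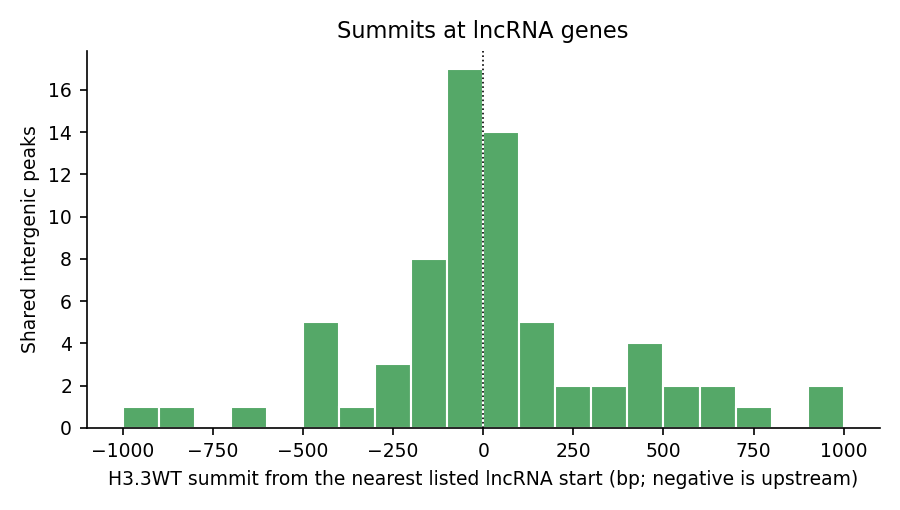
Number of shared intergenic peaks (y axis) by the distance in bp of the H3.3WT summit from the nearest listed start of the lncRNA gene (x axis, negative is upstream of the start), for the 71 peaks nearer a start than an end. The bars are tallest on both sides of the start, marked by a dotted line, and 44 summits lie within 200 bp of it.

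Host genes of snoRNAs, which guide the modification of ribosomal RNA, were looked up after their values had been seen. Of 18 listed host genes (Gas5 and genes named Snhg), 7 had a member. Over all 12731 annotated lncRNA genes 106 (0.833%) had a member within 1 kb. Besides Snhg12 these were Snhg7 (7.83-fold with H3.3K27M and 5.90-fold with H3.3WT), Snhg8 (6.16-fold and 6.42-fold in that order), Snhg15 (6.49-fold and 4.61-fold) and Snhg16 (6.13-fold and 6.74-fold). The lowest in the H3.3K27M list were Snhg17 (2.64-fold, with 4.63-fold in the H3.3WT list) and Snhg20 (3.66-fold, with 6.82-fold in the H3.3WT list). In the H3.3WT list the lowest was Snhg15. Genes with no intergenic shared peak may still have one at an overlapping protein-coding gene, which the selection leaves out. Other lncRNA starts with known names were Mir22hg (8.70-fold with H3.3K27M and 7.96-fold with H3.3WT) and Crnde (5.47-fold and 4.58-fold in that order), 1687 bp from the homeobox gene Irx5. Chaserr, an lncRNA that restrains the neighbouring chromatin remodeller gene Chd2, had 4.62-fold with H3.3K27M and 6.998-fold with H3.3WT.

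MicroRNA genes were the nearest noncoding gene at 3 members. At a further member, that of Snhg20, Mir6516 lay 537 bp from the summit. The peak at Mir212 and Mir132 had 7.55-fold with H3.3K27M and 5.71-fold with H3.3WT, with the H3.3WT summit 23 bp from Mir212 and 181 bp from Mir132. These microRNAs are made from 1 transcript and act in neurons. The peak 468 bp from Mirlet7i, of the let-7 family that promotes differentiation, had 7.68-fold with H3.3K27M and 7.32-fold with H3.3WT. The peak 409 bp from Mir688 had 3.92-fold with H3.3K27M and 5.999-fold with H3.3WT. The mature RefSeq sequences of the named neural microRNAs are given with the seed, bases 2 to 8, in capitals, to show that miR-132-3p and miR-212-3p share theirs and let-7i-5p does not.
let-7i-5p: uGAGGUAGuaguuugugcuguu
miR-132-3p: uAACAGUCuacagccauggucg
miR-212-3p: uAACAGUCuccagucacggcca

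Pseudogenes had a gene end at 17 members, with median folds of 5.79 with H3.3K27M and 6.86 with H3.3WT. The 17 were 2.57% of members, against 6.54% of intergenic peaks found only with H3.3K27M and 2.21% of those only with H3.3WT. Besides Cbfa2t2-ps1, Zfp133-ps (15.4-fold with H3.3K27M and 24.1-fold with H3.3WT) and Erdr1 (17.8-fold and 23.97-fold in that order) were above 10-fold in both lists. Erdr1 lies at the end of chromosome X, in the region shared with the Y. The peak there, chrX:170008931-170010293, had a counterpart at chrY:90783807-90785208, with 22.6-fold in H3.3K27M cells and 22.7-fold in H3.3WT cells. The shared peaks on the Y were few, 9, and 8 of them were members. On the X 36 of 137 shared peaks (26.3%) were members, against 12.05% over all chromosomes. Since the ends of X and Y are nearly identical in sequence, reads of these peaks may not have been told apart.

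Distances from protein-coding genes ranged from 1021 bp to 1726979 bp, with a median of 23414 bp (interquartile range 5786 to 84900 bp). Within 5 kb of a gene end lay 145 members (21.9%), from 5 to 10 kb 90 (13.6%), from 10 to 50 kb 200 (30.2%), from 50 to 100 kb 87 (13.1%) and beyond 100 kb 140 (21.1%). Median folds were 5.82 with H3.3K27M and 5.999 with H3.3WT within 5 kb, and 5.43 with H3.3K27M and 6.23 with H3.3WT beyond 100 kb. Sites from 5 to 10 kb had the highest medians, 6.71 with H3.3K27M and 6.63 with H3.3WT. Among genes with a known strand the nearest end was the start for 254 members and the finish for 261 (49.3% starts).

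**Figure D4:**
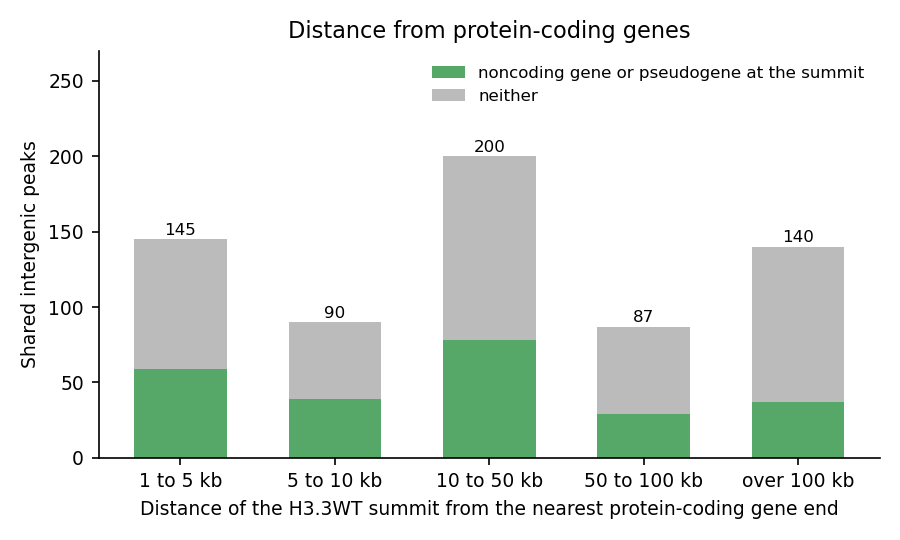
Number of shared intergenic peaks (y axis) by the distance of the H3.3WT summit from the nearest protein-coding gene end (x axis, in kb), with the number above each bar. The green part holds peaks with a noncoding gene or pseudogene at the summit, and 140 peaks lie more than 100 kb from a protein-coding gene.

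The sites farthest from any protein-coding gene included one 1726979 bp from Slc39a10, a zinc transporter gene, with 9.38-fold in H3.3K27M cells and 6.23-fold in H3.3WT cells. Another, 1214796 bp from Pabpc4l, had 7.88-fold with H3.3K27M and 6.86-fold with H3.3WT, and one 1064657 bp from Manea had 9.05-fold with H3.3K27M and 10.99-fold with H3.3WT. A site 1013705 bp from Dsc3 had 5.38-fold with H3.3K27M and 5.25-fold with H3.3WT, below the medians of all members, while the other sites more than 1013705 bp from a gene, Cbfa2t2-ps1 among them, were above the medians in both lists. At the limit of 1 kb, the members just inside it were near Celsr3 (1021 bp, 4.12-fold with H3.3K27M and 3.62-fold with H3.3WT), Gm4861 (1025 bp, 4.11-fold and 5.999-fold in that order) and Fmc1 (1045 bp, 7.62-fold and 5.15-fold). The peaks just outside it were near Slc11a1 (974 bp, 7.25-fold with H3.3K27M and 5.998-fold with H3.3WT), Ddx3x (965 bp, 5.74-fold and 6.49-fold) and Ctc1 (957 bp, 4.74-fold and 3.86-fold). Only 2 members had their H3.3K27M summit within 1 kb of a gene end, and the other 660 were intergenic in both lists.

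Some members lay in runs. With a gap of at most 50 kb, 484 members stood alone, 56 pairs were formed and 17 runs held 3 or more members (66 in all), so that 178 members (26.9%) had another nearby. This share was not computed for other groups of peaks, so it cannot be called high or low. It includes the runs of snRNA gene copies described above. The run with the most members had 9 between 47740112 and 47788205 on chromosome 6, with 3.50-fold to 6.71-fold in H3.3K27M and 3.28-fold to 6.35-fold in H3.3WT. It ended at Rny1, the gene of a Y RNA, small RNAs bound by the Ro protein (5.65-fold with H3.3K27M and 4.42-fold with H3.3WT). A run of 5 beside Ptma, the prothymosin alpha gene, and Tex44 on chromosome 1 (86434590 to 86532290) had 3.91-fold to 10.04-fold with H3.3K27M and 3.49-fold to 9.73-fold with H3.3WT. The highest of these in the H3.3K27M list lay 1085 bp from the start of Ptma. A run of 5 at the end of the Y ranged from 2.32-fold to 22.6-fold with H3.3K27M and from 4.32-fold to 22.7-fold with H3.3WT. Beyond Chaserr, a run of 3 near Chd2 also held sites of 4.48-fold with H3.3K27M and 6.99-fold with H3.3WT, and of 6.84-fold with H3.3K27M and 12.8-fold with H3.3WT.

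Of all 21900 protein-coding genes, 563 (2.57%) were the nearest gene of at least 1 member. Among 32 immediate early and stress response genes, which are transcribed within minutes of a stimulus, 7 (21.9%) were the nearest gene of a member. The number was 4 when at least 5-fold was required in both lists, which left 360 members. It was also 4 with the stricter overlap of both peaks, which left 592. The share over all protein-coding genes was not computed under these rules, so the lower numbers cannot be set against it. A nearest gene is a position and not a target, and no test was made of these counts. The closest was Dusp6, a phosphatase gene of the ERK pathway, 1565 bp away with 5.50-fold in H3.3K27M cells and 3.52-fold in H3.3WT cells. Ier2 (2242 bp away) had 9.06-fold with H3.3K27M and 5.63-fold with H3.3WT, and Atf3 (6815 bp) 4.94-fold and 4.53-fold in that order. Ier5 (12969 bp) had 6.90-fold with H3.3K27M and 8.40-fold with H3.3WT. The growth arrest gene Gadd45g (72275 bp) had 16.7-fold with H3.3K27M and 7.86-fold with H3.3WT, Dusp4 (74704 bp) 5.12-fold and 5.82-fold in that order, and Jun (82699 bp) 3.91-fold and 6.89-fold.

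Among 32 genes of the MTG family and its partners 4 (12.5%) were nearest to a member. The site 13585 bp from Runx1t1, the founding member of the MTG family, had 6.51-fold with H3.3K27M and 6.73-fold with H3.3WT. Near Tbl1xr1, an NCoR complex gene 140051 bp away, the values were 9.06-fold with H3.3K27M and 12.4-fold with H3.3WT, and near its relative Tbl1x (75971 bp) 3.36-fold and 5.48-fold in that order. Near Tcf12, the gene of the E protein HEB (21411 bp), they were 3.596-fold with H3.3K27M and 4.01-fold with H3.3WT. No summit of the set had Cbfa2t2 itself, on chromosome 2, as its nearest gene.

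Of 28 neural stem and progenitor genes, 3 (10.7%) were nearest to a member. Id1 and Id2 encode helix-loop-helix proteins that block basic helix-loop-helix factors, and each had a pair of sites. Those at Id2 lay 2666 bp away, with 9.85-fold in H3.3K27M cells and 5.21-fold in H3.3WT cells, and 28622 bp away, with 4.78-fold in H3.3K27M cells and 5.15-fold in H3.3WT cells. Those at Id1 lay 1115 bp away, with 3.73-fold in H3.3K27M cells and 4.69-fold in H3.3WT cells, and 2000 bp away, with 6.32-fold in H3.3K27M cells and 5.31-fold in H3.3WT cells. The Zic1 site was 454320 bp distant, with 4.03-fold in H3.3K27M cells and 5.999-fold in H3.3WT cells. All of these sites except the nearer one at Id2 and the farther one at Id1 had the higher value in the H3.3WT list.

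The other lists had lower shares. One list held developmental regulators typical of Polycomb, whose presence at these genes was not examined in these cells. Of the 55 regulators, 4 (7.27%) were nearest to a member, namely Hoxb13 (3952 bp, 4.77-fold with H3.3K27M and 4.91-fold with H3.3WT), Otx2 (1611 bp, 4.40-fold and 2.80-fold in that order), Dlx2 and Barhl2. Of 32 genes of the ATF4 response and of serine metabolism, 2 (6.25%) were, Cebpb and Ddit4. The site 6300 bp from Ddit4, a stress-induced inhibitor of mTORC1, had 11.5-fold with H3.3K27M and 19.6-fold with H3.3WT. Among 45 genes of BMP, TGF-beta and Wnt signalling 2 were, Bmp7 and Ctnnb1 (4.44%), and among 40 of the TCA cycle and alpha-ketoglutarate 1 was, Psat1 (2.5%). None of 38 chromatin and H3K27 methylation genes was the nearest gene of a member.

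The 39 promoter windows with a member's summit were rich in CpG. The summits lay from 235 bp upstream to 46 bp downstream of the start, with a median 51 bp upstream, and 27 were within 100 bp. These positions are bounded by the choice of windows, which run from 250 bases before to 50 after the start, and are no separate result. The ratio of observed to expected CpG was at least 0.6 in 31 of the 39 windows (79.5%). It was so in 14.05% of all 11588 lncRNA windows, 35.8% of all 32851 windows and 91.5% of the 2249 windows of protein-coding genes with a shared summit. Median CpG counts were 22 in the member windows, 4 in all lncRNA windows and 23 in the protein-coding windows with a shared summit, and median GC content was 58.3%, 48.3% and 60.7% in that order. By median CpG count and GC content the member windows thus stood near the bound protein-coding promoters and apart from the median lncRNA promoter. Their share of CpG-rich windows was lower than that of the bound protein-coding promoters. Where any base of the peak could lie in the window, 41 of 61 windows (67.2%) were CpG-rich. The median fold at the 39 windows was 6.32 with H3.3K27M and 6.998 with H3.3WT.

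A search was made on both strands for 18 motifs. Factors of the SP and KLF families read GGGCGG, the NFY complex reads CCAAT, and ETS factors read CCGGAAGT. Letters for NRF1 were GCATGCGC, for ZBTB33 TCGCGAGA, for CREB and ATF factors TGACGTCA, for YY1 AAGATGGCG and for CTCF AGGGGGCGC. GATA factors were searched as AGATAAG and AP-1 as TGANTCA. One E-box, the type E proteins share with other factors, was CAGGTG. Another, plotted as the bHLH type, was CAGCTG. The type of MYC was CACGTG. Letters for the tRNA B box were GTTCGAATC, for a partial REST site TTCAGCACC and for a partial RFX site GTTGCCATG. For ZNF143, ACTACAATT was searched first and then, with free bases, ACTACANNT. The last, N being any base, includes the one before it and was added after the printed windows had been seen. A match is a description of the letters and not a bound site.

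GGGCGG was found in 24 of the 39 windows (61.5%), against 65.1% of the bound protein-coding windows, 16.3% of all lncRNA windows and 35.7% of all windows. CCAAT was in 12 (30.8%), against 39.8%, 36.0% and 37.4% in the same order. ACTACANNT was in 6 (15.4%), 3 of them among the printed windows 4933404O12Rik, Snhg12 and LOC102631992, against 16.9%, 3.25% and 4.16%, while ACTACAATT was in 0. Where any base of the peak could lie in the window, ACTACANNT was in 6 of 61 windows (9.84%). This pattern was added after the printed windows had been seen, and they are counted in both shares. The comparison for ACTACANNT is therefore not independent of that choice. TGACGTCA was in 3 (7.69%), among them 1810044D09Rik, against 5.91%, 0.975% and 1.79%, and CCGGAAGT also in 3 (7.69%), against 18.1%, 1.58% and 3.89%. With 39 windows the intervals are wide, for ACTACANNT 7.25 to 29.7%.

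Of the E-boxes, which basic helix-loop-helix factors bind, CACGTG was in 8 windows (20.5%, 10.8 to 35.5%), against 13.3% of the bound protein-coding windows, 5.89% of all lncRNA windows and 7.15% of all windows. CAGGTG was in 7 (17.9%), against 12.8%, 21.1% and 20.2% in that order, and CAGCTG in 5 (12.8%), against 11.9%, 17.7% and 16.3%. AGATAAG was in none of the 39, against 3.78% of all lncRNA windows, and TGANTCA in 1, against 9.31% of them. Of the remaining motifs, TCGCGAGA was in 2 windows (5.13%), against 0.995% of all windows, and AAGATGGCG also in 2, against 1.40%. In 1 window each were GCATGCGC (2.71% of all windows), AGGGGGCGC (1.25%) and GTTGCCATG (0.773%). Neither GTTCGAATC (0.0457% of all windows) nor TTCAGCACC (0.371%) was found. These windows cover the lncRNA starts only, and the sequence at the other members was not used here.

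**Figure D5:**
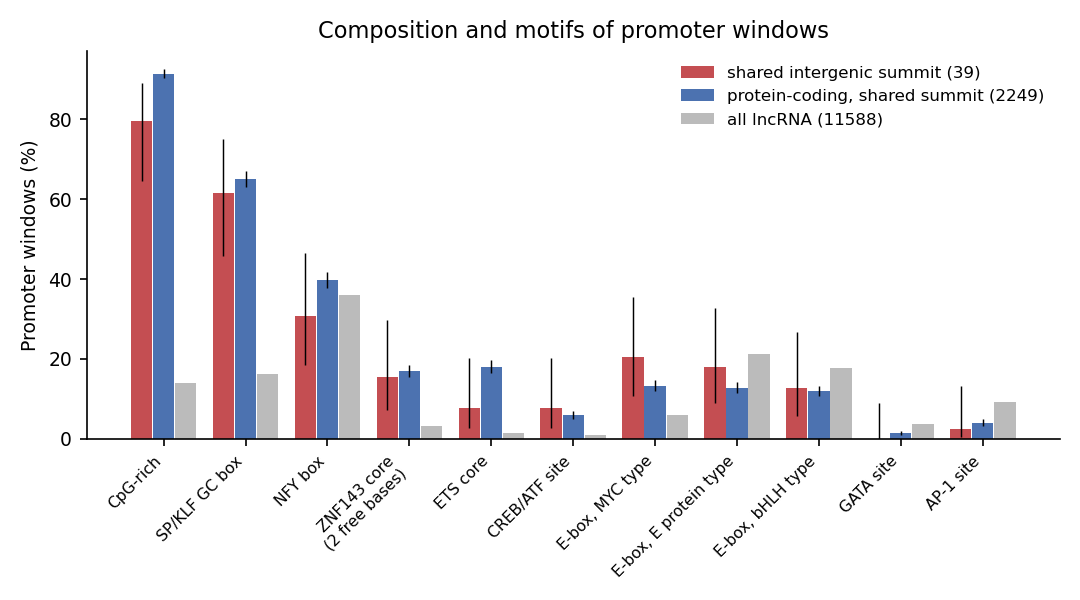
Percent of promoter windows (y axis) that are CpG-rich, with an observed to expected ratio of at least 0.6, or hold a motif (x axis), for windows with a shared intergenic summit (39, red), protein-coding windows with a shared summit (2249, blue) and all lncRNA windows (11588, grey). Thin lines are 95% Wilson intervals, and the red bars for CpG-rich windows (79.5%) and the GC box (61.5%) lie nearer the blue than the grey bars.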

How the data were processed

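CBFA2T2 ChIP-seq peak lists of 1 H3.3K27M and 1 H3.3WT library were used, grouped by the genotype and antibody in the labels. The submitters' processing notes name Trim Galore, MACS2 and mm10, without versions. The aligner, its placing of reads with several matches, duplicates and the caller's settings are not given in the sources used here. The authors' fold enrichment, a ratio of ChIP signal to local background, was used as deposited. The −log10 q, as deposited by the authors, was used for filters, and the deposited −log10 p was not used. The deposited score column was not used. Depth is unknown, since no read numbers accompany the peaks, so a difference in depth between the lists could change which weak sites were called and their folds.

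Overlaps, distances and clusters were computed in Python 3.11.15 with pandas 2.3.3 and numpy 2.4.6, with coordinates 1-based and genes from RefSeq GRCm38.p6. The overlap and annotation steps were tested on simulated peaks. Shares have 95% Wilson intervals, which cover counting error only. Members and gene lists were chosen with earlier results of these data known. Named are the highest folds of each list, up to 5 examples a class, the most distant sites and genes of the lists, plus sites chosen after their values were seen (Pum2, Tal2, Map1lc3b, Ptma, Chaserr, Mir22hg, Crnde, the remaining snRNA genes and the snoRNA host genes). Windows around summits had been planned for motifs, and RefSeq promoter windows replaced them because no genome sequence was used. Alternatives changed the overlap, fold, −log10 q, distance, repeat and list-length rules, 1 at a time.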

Additional observations from a re-analysis of the deposited data

How the results depend on the processing

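Of 74 values under alternative rules, 59 kept within the limits set for the value, and 15 moved. Requiring at least 5-fold in both lists left 360 members, with median folds of 7.62 (H3.3K27M) and 7.44 (H3.3WT), 16.9% with another member within 50 kb and 4 immediate early genes nearest to a member. With a −log10 q of at least 5 the medians were 6.64 and 6.86, in the same order of lists, and 23.6% had another member nearby. With summits at most 100 bp apart these were 6.04, 6.45 and 21.7%. The stricter overlap, by length of both peaks, left 4 immediate early genes. Cutting the longer list to the length of the shorter gave medians of 6.15 and 6.40. Noncoding genes within 3 kb of the summit raised the share at or in such a gene to 40.5%. The thresholds on fold and −log10 q raise the medians by their construction. Cutting the longer list kept its peaks with the highest −log10 q and so acts as such a threshold. A wider window for noncoding genes can only raise the share at or in such a gene. Rules that only remove members can only keep or lower the number of immediate early genes nearest to a member. The cause of the other shifts, among them those in the share with another member nearby, was not tested. No paired analysis was possible because each genotype has 1 library, and for the same reason no library could be left out. Motif windows around the summits were not run, since no genome sequence was used. Unknown depth limits what is said of the weakest sites.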
